A study of Mus musculus with 23 samples.

Results

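The genes described here encode 8 subunits of the GABA-A receptor, namely the α subunits α2 to α5 (Gabra2, Gabra3, Gabra4 and Gabra5), the γ subunits γ1 and γ3 (Gabrg1 and Gabrg3), δ (Gabrd) and ε (Gabre). They were taken from the 56941 genes of the count tables by mapping Ensembl identifiers to gene names in GRCm39. All 8 passed the filter on low counts, Gabre only through its CRE libraries. The 8 genes were picked by subunit class with the CRE to RFP values of these libraries known. For them that contrast is described and no p-value is printed. Where one is said to be past the threshold of an adjusted p under 0.05, or called, that is description and not a test. RNA had been sequenced from primary hippocampal neurons of homozygous NEDD8cKO mice, dissected at P0 and kept for 12 days in culture according to the labels, a day less than in the study's methods. Cultures received a lentivirus that encoded either red fluorescent protein (RFP, the control) or CRE recombinase tagged with RFP (CRE), which removes the floxed part of Nedd8. The controls therefore carried the same floxed alleles and a virus as well, and no uninfected culture was sequenced. Both viruses used the Synapsin1 promoter, which is active in neurons, while RNA came from whole dishes that also held glia and any neuron that escaped infection. In such bulk samples, fewer cells of a type and less RNA per cell cannot be told apart.

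GABA-A receptors are chloride channels built from several subunits, most often α, β and a γ or δ subunit, and they carry most fast inhibition in the brain. α2 and α3 are typical of synapses and of the developing forebrain, α5 is enriched in the hippocampus, where much of it lies outside synapses, and α4 pairs with δ in extrasynaptic receptors of dentate granule cells that respond to low GABA concentrations and to neurosteroids. γ1 and γ3 can replace the common γ2 subunit, and ε, which is mostly found in hypothalamic and brainstem neurons, gives receptors that lack the usual benzodiazepine response.

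Libraries numbered 23, 12 CRE and 11 RFP, and the comparison used 21 of them (11 CRE and 10 RFP), the ones in the count table that accompanies the study. Total counts in these 21 were 7430401 to 13345552 in CRE and 9833872 to 17112815 in RFP. Nedd8 itself, the check of the labels, was at 61.4 ± 10.2 CPM (counts scaled to library size, with TMM factors) in RFP (SD, n = 10) and at 11.5 ± 3.49 CPM in CRE (SD, n = 11), with no overlap between the groups. Nedd8Cre1-3, Nedd8Cre3-3 and Nedd8RFP2-4 stood apart: mitochondrial transcripts made up 0.261%, 1.83% and 3.44% of their counts against 6.997 to 11.1% in the other 20, and across 14449 genes their counts rose with the GC content of the transcript (Spearman 0.752, 0.572 and 0.486 against -0.22 to 0.215 in the others, over genes that are not independent). Nedd8Cre1-3 and Nedd8RFP2-4 are among the 21 libraries, Nedd8Cre3-3 is not, and the study's methods name Nedd8Cre1-3 and Nedd8Cre3-3 as the removed pair. Values are therefore also given for all 23 libraries, for the 21 that the methods would leave, and for 19 without the 3 libraries and Nedd8RFP3-2. The number before the hyphen of a library name is called the culture number here, although no source says in words that it marks a culture. Where libraries of a group share a culture, a p-value measures in part the spread between wells.

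Most of the 8 genes sit in known subunit clusters, each of the 8 on the minus strand of GRCm39. Gabrg1 (chr5:70906506-70999960), Gabra2 (chr5:71114573-71253662) and Gabra4 (chr5:71721738-71815722) share a cluster with the β1 gene, and Gabrg3 (chr7:56366213-57036936) and Gabra5 (chr7:57055164-57240831) lie side by side. Gabre (chrX:71299605-71318409) and Gabra3 (chrX:71476275-71700723) lie close together on the X chromosome, and Gabrd (chr4:155469407-155482872) stands outside these clusters. The strand setting of the counting is not given in the sources used here, and exons of Gabra4 overlap 101 bases of Gabrb1 exon on the opposite strand. Among the 19 subunit genes compared, 5.19% of the 50-base stretches of Gabra5 occur in another of them, 0.234% of those of Gabra4 and fewer in the rest, so that shared reads bear mainly on Gabra5. Coding sequences of the 4 α genes were 67.8 to 73.4% identical between pairs.

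The windows around the annotated start, 250 bases before to 50 after it in GRCm39, are shown for Gabre, the gene with the largest difference towards CRE among the 8, and for the 2 that were lowest relative to RFP (Gabra5 and Gabra2), because they differ in composition and in GC boxes. Capitals mark each GC box, GGGCGG or its reverse complement.
Gabre, chrX:71318360-71318659, minus strand: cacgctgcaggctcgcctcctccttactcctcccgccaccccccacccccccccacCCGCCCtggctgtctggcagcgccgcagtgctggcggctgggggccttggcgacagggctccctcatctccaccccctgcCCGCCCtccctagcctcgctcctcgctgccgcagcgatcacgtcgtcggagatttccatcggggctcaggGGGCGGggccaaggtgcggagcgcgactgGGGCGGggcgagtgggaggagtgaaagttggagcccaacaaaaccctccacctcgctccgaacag
Gabra2, chr5:71253613-71253912, minus strand: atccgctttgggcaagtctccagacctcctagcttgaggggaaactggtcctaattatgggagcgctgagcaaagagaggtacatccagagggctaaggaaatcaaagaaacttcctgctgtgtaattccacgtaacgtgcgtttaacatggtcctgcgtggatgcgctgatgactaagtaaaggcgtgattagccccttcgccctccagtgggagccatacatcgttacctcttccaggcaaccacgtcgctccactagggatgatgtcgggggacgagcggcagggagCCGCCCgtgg
Gabra5, chr7:57159723-57160022, minus strand: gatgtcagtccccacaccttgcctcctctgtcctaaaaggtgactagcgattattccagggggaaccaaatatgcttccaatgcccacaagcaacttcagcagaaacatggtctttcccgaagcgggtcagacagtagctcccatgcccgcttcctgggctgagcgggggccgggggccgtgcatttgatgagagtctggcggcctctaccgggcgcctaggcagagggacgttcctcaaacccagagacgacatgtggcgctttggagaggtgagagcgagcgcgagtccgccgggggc
The Gabre window holds 4 GC boxes, that of Gabra2 holds 1 and that of Gabra5 none. Of the 21770 windows of all genes compared, 42.5% hold at least 1 GC box and 6.20% hold 4 or more. GC content was 71.3% in the Gabre window, above 94.1% of all windows, against 55.0% for Gabra2 and 60.3% for Gabra5. The Gabra4 window holds 2 GC boxes, that of Gabrg3 holds 1, and those of Gabra3 and Gabrg1 hold none. The letters of the antioxidant response element (TGACNNNGC, in 12.5% of all windows), of the cAMP response element (TGACGTCA, in 2.44%) and of a proneural E-box (CAGATG, in 15.2%), searched on both strands, are in none of these windows, nor in those of Gabra3, Gabra4, Gabrg1 and Gabrg3. The broader E-box CANNTG, which contains CAGATG and is in 70.6% of all windows, occurs 2 times each in the Gabra5 and Gabrg1 windows. The Gabrd window is not included in these statements. These matches describe the letters alone. The start used for Gabra5 is that of its canonical transcript and lies inside the gene.

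Among all 14488 genes tested with edgeR, 30.2% had an adjusted p under 0.05 between CRE and RFP, 16.4% higher and 13.8% lower in CRE, and the median log2 fold change was 0.02. Of the 8 subunit genes 5 were past that threshold, 2 higher (Gabrd and Gabre) and 3 lower (Gabra2, Gabra4 and Gabra5), with a median of -0.36. Over all 23 libraries, the 21 left by the methods and the 19, the share of all genes called was 28.2%, 37.9% and 38.1%, and the same number of subunit genes, 5, was called in each. These counts describe genes chosen with the contrast known, and nothing is read from them. Within the family, values differed in size and in direction, with ε and δ transcripts higher, α5, α2 and α4 lower, and α3, γ1 and γ3 with intervals that include no change.

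**Figure D1:**
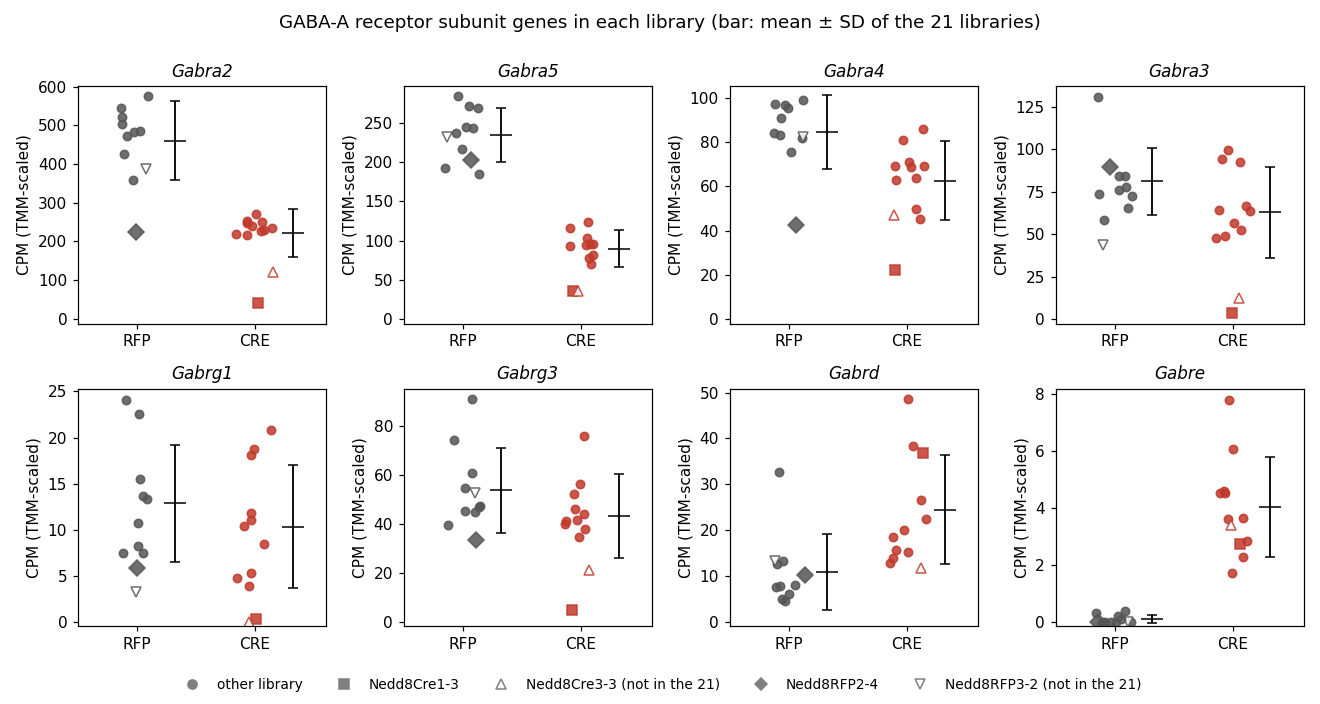
Level of each subunit gene in every library, in TMM-scaled CPM on a linear axis that starts at 0, for RFP (grey) and CRE (red), with the mean ± SD of the 21 libraries as a bar. Squares, triangles and diamonds mark the libraries that stood apart or were not among the 21 (open symbols), and the groups are separate for Gabra5 and Gabre.

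Gabra2 was the most abundant of the 8 genes. RFP libraries ran from 224.9 to 574.8 CPM with a median of 484.6, and CRE libraries from 40.9 to 271.7 with a median of 235.2. The lowest library of each group was one that stood apart, Nedd8RFP2-4 and Nedd8Cre1-3, and 9 of 10 RFP libraries lay above every CRE library. The means were 459.8 ± 102.1 CPM in RFP (SD, n = 10) and 221.1 ± 61.98 CPM in CRE (SD, n = 11), and the log2 fold change was -1.08 ± 0.20 (SE; 95% interval -1.50 to -0.65). Over the 19 libraries it was -1.04 with an interval of -1.20 to -0.89, and the 10 CRE values were then all under the lowest RFP value, which held for 4.09% of all genes.

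Gabra5, the subunit most typical of hippocampal pyramidal neurons, gave the clearest separation among the α genes. Its level was 184.6 to 284.9 CPM in RFP with a median of 240.2, and 35.7 to 123.1 CPM in CRE with a median of 94.1. The highest of the 11 CRE values was under the lowest of the RFP values, an arrangement found in 2.08% of the genes tested, and the same held for the 12 CRE and 11 RFP libraries of the whole series, where it was found in 1.41%. Means were 234.9 ± 34.7 CPM in RFP (SD, n = 10) and 89.6 ± 23.6 CPM in CRE (SD, n = 11), and the log2 fold change was -1.41 ± 0.15 (SE; 95% interval -1.71 to -1.10). It stayed between -1.50 and -1.30 in all 16 ways of fitting the comparison.

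Gabra4, the partner of δ, moved less. RFP libraries ran from 42.6 to 99.0 CPM with a median of 87.6, and CRE libraries from 22.1 to 86.0 with a median of 68.7. The lowest values again belonged to Nedd8RFP2-4 and Nedd8Cre1-3, the groups overlapped, and 5 of 10 RFP libraries were above every CRE library. The log2 fold change was -0.46 ± 0.17 (SE; 95% interval -0.81 to -0.10) over the 21 libraries and -0.44 with an interval of -0.65 to -0.24 over the 19. It was past the threshold in 10 of 16 fits, and not when any of the 3 culture numbers was left out.

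Gabra3, the other α gene of the developing forebrain, overlapped broadly between the groups. It was at 58.2 to 131.1 CPM in RFP with a median of 77.0, and at 3.54 to 99.6 CPM in CRE with a median of 64.0. The lowest CRE value came from Nedd8Cre1-3, and the next CRE library was at 47.9 CPM. The log2 fold change was -0.39 ± 0.28 (SE; 95% interval -0.97 to 0.18), and -0.25 with an interval of -0.57 to 0.08 over the 19 libraries.

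Both γ genes were low and variable. Gabrg1, a γ subunit also found in glia, was at 5.81 to 24.1 CPM in RFP (median 12.0) and at 0.272 to 20.8 CPM in CRE (median 10.4). Gabrg3 was at 33.4 to 91.2 CPM in RFP (median 47.1) and at 4.90 to 76.0 CPM in CRE (median 41.8). In each case the groups overlapped over most of their range, and Nedd8Cre1-3 was the lowest CRE library. Log2 fold changes were -0.34 ± 0.39 for Gabrg1 (SE; 95% interval -1.14 to 0.46) and -0.33 ± 0.25 for Gabrg3 (SE; 95% interval -0.85 to 0.19), and neither was past the threshold in any of the 16 fits.

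Gabrd, which encodes the δ subunit of extrasynaptic receptors, was higher in CRE. RFP libraries ran from 4.54 to 32.7 CPM with a median of 7.88, and CRE libraries from 12.7 to 48.6 with a median of 19.9. The highest RFP value, in Nedd8RFP3-1, lay inside the CRE range. Below every CRE library lay 8 of 10 RFP libraries, and 3 CRE libraries lay above every RFP library. Among these 3 was Nedd8Cre1-3, which stood apart, at 36.9 CPM. Over the 19 libraries, 7 of 9 RFP libraries lay below every CRE library and 2 CRE libraries above every RFP library. Means were 10.8 ± 8.25 CPM in RFP (SD, n = 10) and 24.4 ± 11.9 CPM in CRE (SD, n = 11), with a log2 fold change of 1.17 ± 0.32 (SE; 95% interval 0.51 to 1.82). The value was 1.08 over the 19 libraries, 1.02 without culture number 1 and 0.94 without culture number 2, and was not past the threshold without culture number 1 or 2.

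Gabre, which encodes ε, went from close to no counts to a low level. The 10 RFP libraries held 13 Gabre counts in all, 6 of them none, and the 11 CRE libraries held 519, with 20 to 103 in each. In CPM the RFP libraries ran from 0 to 0.355 with a median of 0, and the CRE libraries from 1.71 to 7.81 with a median of 3.65. Every CRE library lay above every RFP library, as was found for 2.64% of the genes tested, and this held over all 23 libraries (1.91%) and over the 19 (3.78%). Gabre passed the filter on low counts only through its CRE libraries, so nothing is read from this arrangement or from its place among the genes called. The ratio of counts per total was 39.8, with a 95% interval of 23.1 to 75.3 that covers counting error only (exact binomial). The fitted log2 fold change was 5.14 ± 0.57 (SE; 95% interval 3.97 to 6.31), a value that leans on the few RFP counts. Nedd8Cre1-3 held 2.72 CPM of Gabre and Nedd8Cre3-3 held 3.41, inside the range of the other CRE libraries.

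**Figure D2:**
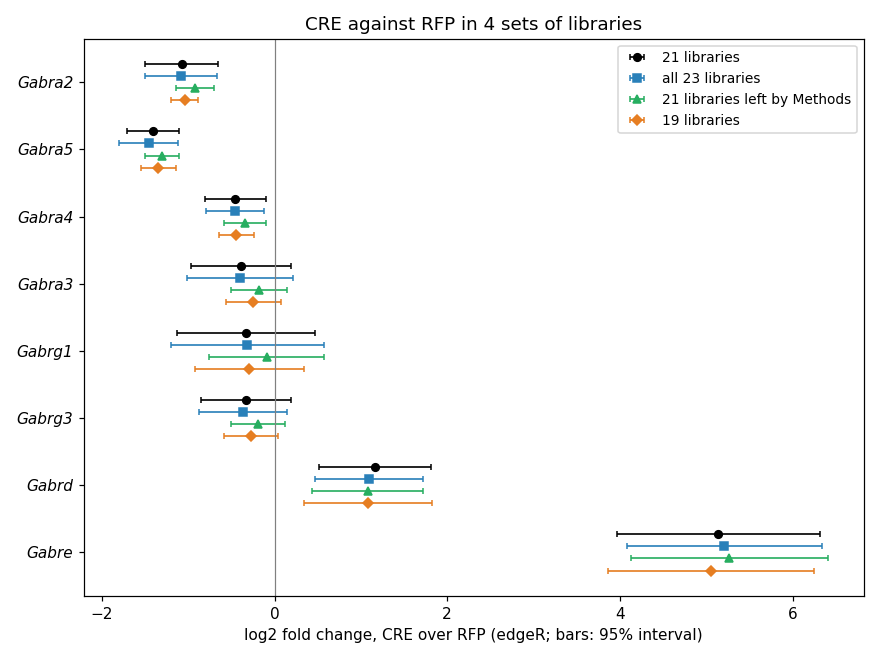
Log2 fold change of CRE over RFP for the 8 genes (edgeR) with 95% intervals as bars, in 4 sets of libraries marked by colour and symbol. Points of a gene lie close together across the sets, on the negative side for Gabra2, Gabra5 and Gabra4 and on the positive side for Gabrd and Gabre, and the intervals of Gabra3, Gabrg1 and Gabrg3 cross 0 in each set.

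The libraries that stood apart held the subunit genes in an order that followed GC content only in part. Transcript GC was 35.3% for Gabrg1, 40.7% for Gabra2, 42.4% for Gabra4, 42.9% for Gabrg3, 43.0% for Gabra3, 50.9% for Gabra5, 53.8% for Gabre and 57.1% for Gabrd. In Nedd8Cre1-3, relative to the median of the 10 CRE libraries among the 19 and on a log2 scale with 0.5 CPM added, Gabra3 was at -3.997 and Gabrg1 at -3.86, Gabra5 was at -1.39, Gabre at -0.51 and Gabrd at 0.92. In Nedd8Cre3-3 Gabrg1, with no count, was at -4.49, but Gabrd was at -0.71 and Gabra5 at -1.40. Nedd8RFP2-4 had Gabra2 at -1.11, Gabra4 at -1.08 and Gabrg1 at -1.13, while Gabra3 was at 0.24 and Gabrd at 0.37. Gabra5 was low relative to other CRE libraries in both atypical CRE libraries, and without any library of this kind its log2 fold change was -1.35 with an interval of -1.55 to -1.14. With the trend on GC content removed from each library, the log2 fold changes over the 21 libraries were -0.99 for Gabra2, -1.44 for Gabra5, -0.35 for Gabra4, 1.07 for Gabrd and 5.11 for Gabre.

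**Figure D3:**
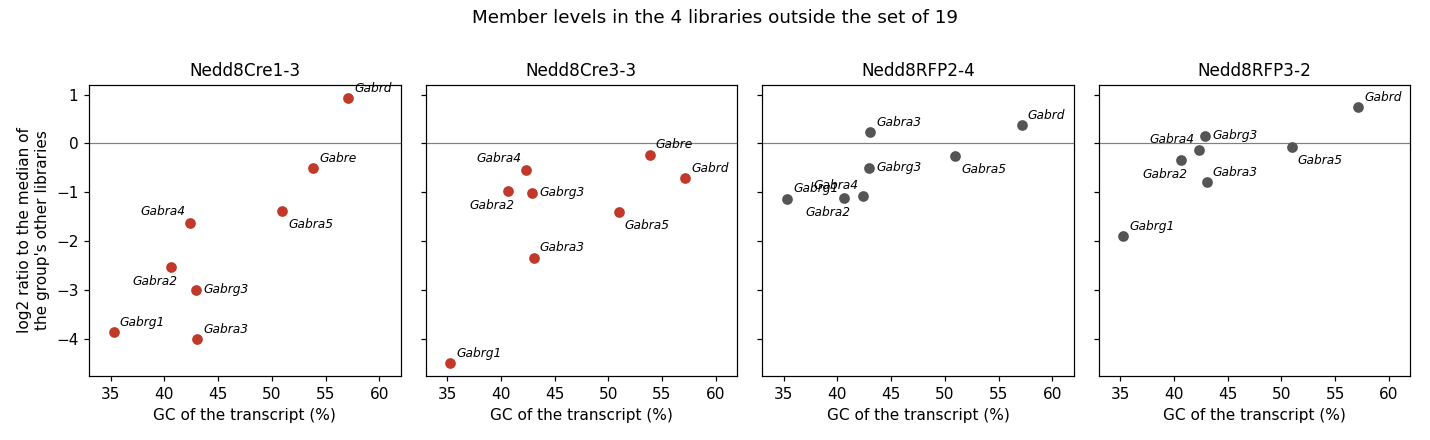
Each panel is a library outside the set of 19, with the GC content of the transcript in percent on the horizontal axis and, on the vertical axis, the log2 ratio of the gene's CPM to the median of its group among the 19 (0.5 CPM added; Gabre is left out of the RFP panels, where it is 0 on both sides). In Nedd8Cre1-3 the points climb from Gabrg1 and Gabra3 at -3.86 and -3.997 to Gabrd at 0.92, and the spread is smaller in the RFP panels.

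Levels per length of exon kept the same order in both groups for the α genes, and were close together among the low genes in CRE. In RFP the mean levels in CPM per kb were 51.3 for Gabra2, 26.0 for Gabra5, 11.8 for Gabra3, 8.42 for Gabra4, 4.52 for Gabrg3, 1.72 for Gabrd, 1.27 for Gabrg1 and 0.020 for Gabre. Each gene was above the next in all 10 libraries, except that Gabrd exceeded Gabrg1 in 6 of 10. In CRE the means were 24.7 for Gabra2, 9.94 for Gabra5, 9.10 for Gabra3, 6.22 for Gabra4, 3.90 for Gabrd, 3.63 for Gabrg3, 1.02 for Gabrg1 and 0.851 for Gabre. There, neighbours were less distinct: Gabra5 exceeded Gabra3 in 8 of 11 libraries, Gabrd exceeded Gabrg3 in 4 of 11 and Gabrg1 exceeded Gabre in 6 of 11, so these neighbours did not differ beyond their spread.

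**Figure D4:**
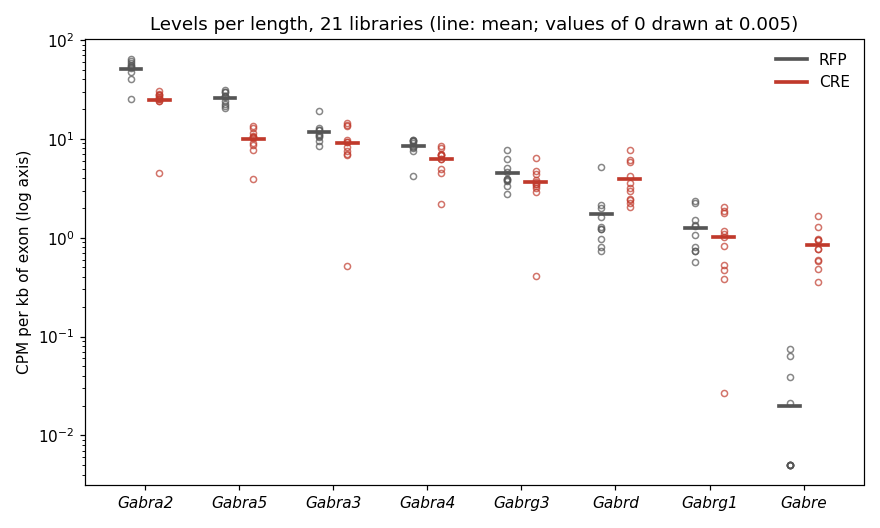
CPM per kb of exon on a log axis for each of the 21 libraries (circles) with the mean of RFP (grey) and CRE (red) as a line, the genes ordered by their RFP mean. The α genes lie to the left, Gabrd is the only gene besides Gabre whose CRE line is the higher of the pair, and Gabre moves from 0.020 to 0.851 CPM per kb.

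The sum of α2 to α5 transcripts per length was 97.5 ± 14.6 CPM per kb in RFP (SD, n = 10) and 49.9 ± 13.8 in CRE (SD, n = 11). Within this sum, the mean shares of Gabra2 and Gabra5 were lower in CRE and those of Gabra3 and Gabra4 higher. Gabra2 made up 52.0 ± 5.49% of the sum in RFP and 49.0 ± 3.96% in CRE. Gabra5 went from 27.04 ± 4.12% to 21.03 ± 5.33%, Gabra3 from 12.4 ± 3.81% to 17.1 ± 5.67% and Gabra4 from 8.59 ± 1.05% to 12.9 ± 2.695%. The lowest Gabra4 share in CRE, 9.98%, was above the highest in RFP, 9.66%. The ratio of Gabrd to Gabra4 in CPM per kb had a median of 0.141 in RFP (range 0.085 to 0.580) and of 0.430 in CRE (range 0.296 to 2.69). The highest CRE ratio came from Nedd8Cre1-3, a library that stood apart. That library also held the lowest CRE shares of Gabra2 (40.6%) and Gabra3 (4.57%). It held the highest of Gabra4 (19.5%) and Gabra5 (35.3%), so the SDs in CRE rest in part on it. These shares and ratios come from the contrast that chose the genes and carry no test.

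The difference between CRE and RFP was then compared across the 3 culture numbers. The values within a culture number come from the contrast that chose the genes and are a description, and only their difference between culture numbers was tested. For Gabra2 the log2 fold change was -1.47 ± 0.37, -0.89 ± 0.35 and -0.87 ± 0.40 in culture numbers 1, 2 and 3 (SE), and for Gabra5 it was -1.58 ± 0.27, -1.23 ± 0.26 and -1.44 ± 0.30. Gabrd was at 1.79 ± 0.53, 1.56 ± 0.47 and 0.48 ± 0.53, the last including Nedd8RFP3-1. Gabra3 was at -0.79 ± 0.49, -0.54 ± 0.45 and 0.28 ± 0.52, Gabrg1 at -0.86 ± 0.70, -0.44 ± 0.64 and 0.37 ± 0.75, and Gabrg3 at -0.24 ± 0.44, 0.06 ± 0.41 and -0.86 ± 0.48, each with a change of sign that is within its errors. Gabre gave 243 counts in CRE against 7 in RFP in culture number 1 (ratio per total 29.0, counting interval 13.9 to 72.9), 132 against 5 in number 2 (29.0, 12.1 to 90.9) and 144 against 1 in number 3 (157.6, 27.8 to 6268). The interaction of condition and culture number passed the threshold for 1 of 14488 genes (0.0069%) and for none of the 8 subunit genes, whose adjusted p ran from 0.977 to 0.986 (edgeR's quasi-likelihood test, Benjamini-Hochberg over all genes). At an unadjusted p under 0.05 it was 595 genes and 0 of the 8, and with errors of this size a moderate difference between cultures could not be seen.

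**Figure D5:**
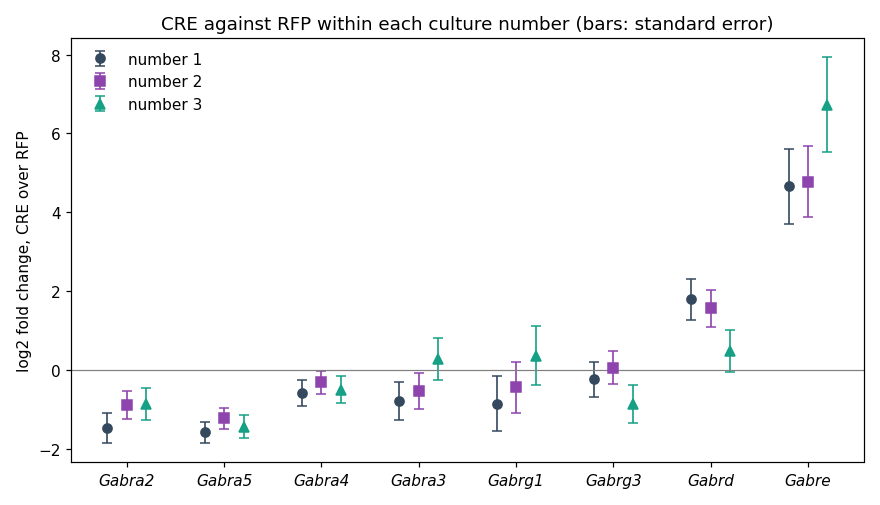
Log2 fold change of CRE over RFP within culture numbers 1, 2 and 3 for each gene, with the standard error as a bar. Gabra2, Gabra5 and Gabra4 lie below 0 and Gabrd and Gabre above 0 in all 3, while Gabra3, Gabrg1 and Gabrg3 lie on both sides; the Gabre point of number 3 rests on 1 RFP count.

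Culture numbers were also compared within each group, where the condition plays no part. Within RFP, 84 of 15488 genes (0.542%) differed among culture numbers and none of the 7 subunit genes tested did (Gabre was filtered out), with adjusted p from 0.271 to 0.991, while at an unadjusted p under 0.05 it was 1455 genes and 3 of the 7 (edgeR). Gabrg3 was at 44.0 ± 3.85, 49.1 ± 11.9 and 70.1 ± 23.5 CPM in RFP culture numbers 1, 2 and 3 (SD, n = 3, 4 and 3), and Gabrd at 6.10 ± 1.55, 8.96 ± 3.23 and 17.9 ± 13.1. Within CRE, edgeR called 0 of 16039 genes (0%) and 693 at an unadjusted p under 0.05, with 0 of the 8 subunit genes in either count.

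The 11 further lists described from here on were also chosen with earlier results of these data known. Genes in them were named mostly by the smallest p in this same contrast. Adjusted p-values printed for them are therefore description and not a test. The first list is the rest of the receptor family, and nothing is read from its counts. Of the 11 other GABA-A receptor subunit genes 6 were tested, and 4 of them fell and none rose past the threshold. Over all genes tested 13.8% fell and 16.4% rose past it. The median log2 fold change of the 6 was -0.70, against 0.02 over all genes. Among them were genes of β subunits, which with α form the GABA binding site. Gabrb1 fell by 0.88 ± 0.20 (SE, adjusted p = 0.00124) and Gabrb2 by 0.64 ± 0.22 (adjusted p = 0.0331), on the log2 scale and by edgeR's quasi-likelihood test. The summed level of these 11 genes was 865.4 to 1377 CPM in RFP and 110.9 to 910.6 CPM in CRE.

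Genes that place receptors at synapses moved in both directions. Of 30 genes for clustering, auxiliary subunits and trafficking, 5 rose and 9 fell past the threshold, with a median of -0.11. Over all genes tested 16.4% rose and 13.8% fell past it, and nothing is read from the counts of this list. Plcl1, which encodes a protein that binds GABARAP and receptor β subunits, rose by 1.27 ± 0.15 on the log2 scale (SE, adjusted p = 3.05e-07, edgeR). Slitrk3, an adhesion molecule of inhibitory synapses, fell by 0.82 ± 0.14 (adjusted p = 9.57e-05, edgeR), and Nsf, a membrane fusion ATPase, fell by 0.53 ± 0.09 (adjusted p = 6.47e-05, edgeR).

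Neurosteroids act on δ-containing receptors in particular, and of 5 tested genes for neurosteroid and endozepine supply 2 rose and 2 fell past the threshold. Over all genes tested 16.4% rose and 13.8% fell past it. Nothing is read from the counts of this short list or of the chloride list below. Srd5a1, a 5α-reductase of neurosteroid synthesis, fell by 1.16 ± 0.21 on the log2 scale (SE, adjusted p = 0.000101, edgeR), and Dbi, the diazepam binding inhibitor, fell by 0.70 ± 0.26 (adjusted p = 0.0431, edgeR). Tspo, a mitochondrial membrane protein that binds cholesterol, rose from a range of 0 to 1.03 CPM in RFP to 0.335 to 13.5 CPM in CRE (log2 fold change 3.54 ± 0.78, adjusted p = 0.001, edgeR). Akr1c14, a 3α-hydroxysteroid dehydrogenase, rose by 2.21 ± 0.66 (adjusted p = 0.0124, edgeR). Its level was low and the groups overlapped, at 0 to 5.47 CPM in RFP and 0 to 16.5 CPM in CRE. Of 9 genes for the chloride gradient and carbonic anhydrases, Wnk1 (0.46 ± 0.12, adjusted p = 0.00385, edgeR) and Car7 (0.94 ± 0.36, adjusted p = 0.0497, edgeR) rose and none fell. Car7 was low and overlapped between the groups, at 1.03 to 5.34 CPM in RFP and 1.82 to 15.3 CPM in CRE. The chloride transporters, looked up after their values were seen, had log2 fold changes of -0.0020 ± 0.15 for Slc12a2 (NKCC1, adjusted p = 0.995) and -0.35 ± 0.17 for Slc12a5 (KCC2, adjusted p = 0.118, edgeR).

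Marker genes of cell types were counted in the same way, where over all genes tested 16.4% rose and 13.8% fell past the threshold. Of 10 neuron markers 6 fell and none rose (median -0.57), and their summed level was 6619 to 7827 CPM in RFP and 3320 to 6351 in CRE. Of 10 markers of granule and pyramidal neurons 8 fell and none rose (median -0.93), with sums of 1377 to 2291 CPM in RFP and 574.3 to 992.3 in CRE. Of 14 markers of GABA neurons 4 rose and 3 fell, with sums of 1340 to 2991 CPM in RFP and 1103 to 2176 in CRE. Among glia, 6 of 9 tested oligodendrocyte lineage markers fell and none rose (sums of 678.4 to 1975 CPM in RFP and 447.2 to 1981 in CRE), and of 10 astrocyte markers 2 rose and 4 fell (3739 to 8024 and 1673 to 5369 CPM). Microglia markers summed to 2.77 to 11.7 CPM in RFP and 5.72 to 12.5 in CRE, and of 3 tested 1 rose and none fell. The one that rose was Tmem119, from 0 to 0.920 CPM in RFP to 0.0854 to 3.35 CPM in CRE (log2 fold change 3.21 ± 0.66, adjusted p = 0.000517, edgeR), while Cx3cr1, too low to be tested, was at 0 to 0.830 CPM in RFP and at 0 in every CRE library. Endothelial and mesenchymal markers summed to 11.4 to 136.7 CPM in RFP and 10.4 to 370.9 in CRE, 6 tested, none higher and 1 lower. The part of cell composition in the subunit values was not tested.

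Profiles over the 21 libraries were compared by the root-mean-square difference of centred log2(CPM + 1) values, a description in which the group difference and the atypical libraries both weigh. Gabra2 lay nearest to Gabrb1, a gene of the same chromosome 5 cluster (0.16, against a spread of Gabra2 of 0.81), and then to Ppfia2 (0.22). Gabra5 lay nearest to the long noncoding RNA Norad (0.26, spread 0.80) and to Erc2, an active zone scaffold (0.27). For Gabra4 the nearest were Mtpn (0.13, spread 0.49) and Kbtbd7 (0.16), for Gabra3 Lrrc4c (0.25, spread 0.92) and Ptprd (0.28), for Gabrg3 Oxct1 (0.22, spread 0.75) and Gad2 (0.25), and for Gabrg1 Edil3 (0.41, spread 0.95) and Dnm3 (0.44). For the genes that were higher in CRE the nearest were Stc2 (0.39) and Trim66 (0.40) for Gabrd, with a spread of 0.89, and Tnfrsf10b (0.37) and Ampd3 (0.40) for Gabre, with a spread of 1.12.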

How the data were processed

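RNA was sequenced from 23 libraries of hippocampal cultures (Illumina Stranded mRNA Prep). Per the labels and the study's methods, the authors demultiplexed with bcl2fastq 2.20.0.422, aligned with STAR 2.7.8a to GRCm39 and counted with featureCounts 1.5.0-p1, and they deposited whole-number counts per gene and library, not normalized. Strand and multimapping settings are not given in the sources used here, so counts of overlapping or similar genes are uncertain. Genes were named with an annotation of GRCm39 (GENCODE).

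The counts were analysed with edgeR 4.0.16 in R 4.3.3 (filterByExpr, TMM, robust quasi-likelihood fit, Benjamini-Hochberg over all genes, threshold 0.05), after tests on simulated data. The CRE to RFP fit held condition alone, over 21 libraries. Levels are CPM with TMM scaling, with exon union length where given per kb. Intervals are 95%, and Gabre counts got an exact binomial interval (scipy 1.17.1). Culture numbers were compared by interaction with condition and within each group. Alternatives were other library sets, relative log expression scaling, DESeq2 1.42.0, no filter, both replicate blocks and each culture number left out. Further ones were counts summed per group and culture number, and a GC trend removed (loess, span 0.3). Libraries with the same number did not deviate together (r = 0.04, -0.02 and 0.16 over culture numbers), so numbers were not used as pairs. The named genes are the 8 members, up to 4 genes of each further list (the smallest p among genes called), Nedd8, and for each member the 2 genes nearest in profile. Slc12a2, Slc12a5 and Cx3cr1 fall outside this rule and were named after their values were seen. The 8 genes and the 11 further lists were chosen with earlier results of these data known. Some genes that this rule names and a sequence are not reported here.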

Additional observations from a re-analysis of the deposited data

Results flagged for a closer look

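Dixon's test singled out 3 values among the 10 RFP libraries, where chance flags about 1 in 20 groups of this kind and 8 genes were tested; the CRE group, with 11 libraries, was too large for the test. Gabra3 was highest in Nedd8RFP2-3, at 131.1 CPM. Gabra4 was lowest in Nedd8RFP2-4, at 42.6 CPM, a library that also had a low mitochondrial share and a trend with GC content. Gabrd was highest in Nedd8RFP3-1, at 32.7 CPM.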

How the results depend on the processing

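Over the 15 alternatives to the CRE to RFP fit (2 of them, the 20 libraries without Nedd8Cre1-3 and the GC trend removed over all 23 libraries, chosen after seeing the data), no subunit gene changed the sign of its log2 fold change. Of 120 values, 112 kept their side of the threshold and 8 lost it, a description of genes chosen with the contrast known. Gabra4 lost it under 6 alternatives and Gabrd under 2, as in the report; the cause was not tested, except that fewer libraries enter where a culture number is left out. The number of genes called went from 4370 to 6920 with no filter, and to 2114 to 3730 with a culture number left out, lowest without number 2; 3 to 4 of the 8 subunit genes were then called, against 5. With a replicate block, 4267 (culture number) or 4235 (library number) genes and 4 of the 8 were called, and Gabra4, at -0.46 and -0.47, was not; the block changed no other call of a subunit gene. Without Nedd8Cre1-3, Gabra3 was at -0.26, Gabrg1 at -0.21 and Gabrg3 at -0.21, none of them called. The interaction with culture number was called for 1 gene over the 21 libraries, 0 over all 23, 45 over the 21 left by Methods, 36 over 19, 88 with no filter and 7 with the GC trend removed. Differences within RFP went from 84 genes to 238 over all 23 libraries (and over the 21 left by Methods), 209 over 19, 465 with no filter, where 1 subunit gene, Gabrd, was called, and 176 with the GC trend removed. Differences within CRE went from 0 to 79 over the 21 left by Methods and over the 19, 159 with no filter and 37 with the GC trend removed. Low RFP counts limit the size of the Gabre difference.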
